A study of Bos taurus with 12 samples.

Results

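The 65 genes described here encode the proteins of the cytosolic ribosome, 40 of its large subunit and 25 of its small subunit. They were taken by symbol from the array's annotation, among probe sets that name 1 gene, out of 9155 genes so named. The symbols were those of the RPL and RPS series with RPLP0 to RPLP2, RPSA and RPS4Y1, and of several probe sets for a gene the one with the highest mean log2 signal over the 12 arrays was used. In all, 90 probe sets named a member, and 48 members had 1 probe set only. RPLP1, RPS27A, RPS4X, RPL10L, RPL22L1, RPL36 and RPL36AL were not analysed here.

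The study profiled embryos of Japanese black cattle made in vitro from oocytes of prepubertal heifers or of adult cows. The prepubertal donors were 9 to 12 months old. All oocytes were matured, fertilized with thawed frozen semen and cultured in the laboratory. Embryos of normal morphology were chosen under a stereomicroscope and pooled, and the total RNA of a pool was amplified with the WT-Ovation Pico system and hybridized to 1 array. The 4 groups were prepubertal blastocysts, adult blastocysts, prepubertal 8-16-cell embryos and adult 8-16-cell embryos, with 3 arrays in each (n = 3 throughout). Blastocysts were pre-hatching, expanded blastocysts of day 7 in pools of 10. The 8-16-cell embryos were collected 70 to 72 h after insemination, on day 3, and pooled by 50. The labels call them biological replicates and do not say whether pools shared donors, a bull or a culture day, so the p-values refer to these pools alone. They also depend more on a variance fitted over all genes of the array than on how far a gene's own 3 replicates lay apart. A pool's RNA is a mixture, and fewer cells of a type and less RNA per cell cannot be told apart.

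A ribosome joins a small subunit, which reads the mRNA, to a large subunit, which forms the peptide bond. Each subunit is built in the nucleolus from ribosomal RNA and one copy of nearly every protein of its set. The mRNAs of ribosomal proteins begin with a terminal oligopyrimidine tract, through which mTORC1 signalling controls their translation. In bovine embryos the stored RNA of the oocyte gives way to transcription of the embryo's own genome at about the 8-16-cell stage, and a working nucleolus forms around that time.

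The deposited values are MAS5 signals, a linear intensity for each probe set, scaled by the authors so that the trimmed mean of every array is the same. A signal therefore says how bright a gene was relative to the rest of its array, and not how much RNA an embryo held. Brightness also depends on the probes, so a gene is compared with itself across arrays. As background, the highest of an array's 27 control probe sets for Bacillus subtilis genes was used, and it ranged from 122 to 1664. Prepubertal 8-16-cell replicate 3 stood apart: it had the highest background, and its 100 brightest probe sets held 49.3% of its signal, against 23.3% to 32.7% on the other 11 arrays. Values are given with this array, and values without it are added for the results it moves most. Where low signals decide a result, its value is also given with every signal under 1664 raised to that level, called the floor, over the probe sets (62 of the 65 members) that exceed it on at least 1 array. The floor makes low signals equal, which lowers the spread between them, and the test then covers fewer probe sets. A call gained only with the floor is therefore not read as added support. As a check of the stage labels, 4 genes of trophectoderm were measured. KRT18, KRT8 and PTGS2 were above background on all 6 blastocyst arrays and on 1, 0 and 0 of the 6 8-16-cell arrays. IFNT2 was less clear, above background on 2 of 3 prepubertal and 3 of 3 adult blastocyst arrays and on 1 adult 8-16-cell array. The 6 measured oocyte genes summed to 177 to 681 in prepubertal and 405 to 689 in adult blastocysts, against 51524 to 256255 in prepubertal and 32084 to 56034 in adult 8-16-cell embryos. KPNA7 and BMP15 made up most of the 8-16-cell sums. ZP3 and NLRP5 went another way, above background on no 8-16-cell array and on 1 blastocyst array each. POU5F1 was above background on all 6 blastocyst arrays, and also on 2 of 3 prepubertal and 1 of 3 adult 8-16-cell arrays. SOX2, the other of 2 measured genes of the inner cell mass, was at background on all 12 arrays. Of 8 cumulus and granulosa genes, 4 were at background on all 12 arrays. HAS2 was above background on all 6 blastocyst arrays and on 2 of 3 adult 8-16-cell arrays. The sum of the 8 was 1461 to 1699 in prepubertal blastocysts, 1280 to 3585 in adult blastocysts, 448 to 3309 in prepubertal 8-16-cell embryos and 487 to 1411 in adult 8-16-cell embryos. The 4 blood genes summed to 187 to 341 in prepubertal blastocysts, 54.7 to 401 in adult blastocysts, 658 to 2519 in prepubertal 8-16-cell embryos and 565 to 1115 in adult 8-16-cell embryos. The 3 sperm genes summed to 228 to 1195 in prepubertal blastocysts and 113 to 229 in adult blastocysts. They summed to 52.0 to 689 in prepubertal and 104 to 442 in adult 8-16-cell embryos. Each of the 3 was above background on at least 1 prepubertal blastocyst array and on no array of the other groups. The part of these cells in the results was not tested.

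As a group, ribosomal protein genes were brighter in blastocysts than in 8-16-cell embryos of both donor groups. The 65 probe sets together held 6.46%, 4.85% and 6.79% of all signal on the prepubertal blastocyst arrays and 4.13%, 3.70% and 4.43% on the adult blastocyst arrays. They held 0.886%, 0.853% and 0.515% on the prepubertal 8-16-cell arrays and 1.52%, 2.33% and 0.799% on the adult 8-16-cell arrays. All 6 blastocyst arrays lay above all 6 8-16-cell arrays. Of the 240 brightest probe sets of an array, 37, 24 and 30 were members in prepubertal blastocysts and 18, 17 and 23 in adult blastocysts, against 2, 3 and 0 in prepubertal and 3, 12 and 2 in adult 8-16-cell embryos. Of the 65 members, 62 to 63 were above background on a prepubertal blastocyst array and 58 to 62 on an adult one. On the 8-16-cell arrays 24 to 47 were above background in the prepubertal group, with the 24 on replicate 3, and 48 to 58 in the adult group. Over all 12 arrays, 17 members were always above background, and 29 were on the 11 arrays without prepubertal 8-16-cell replicate 3. RPL3L was at or below background on all 12.

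**Figure D1:**
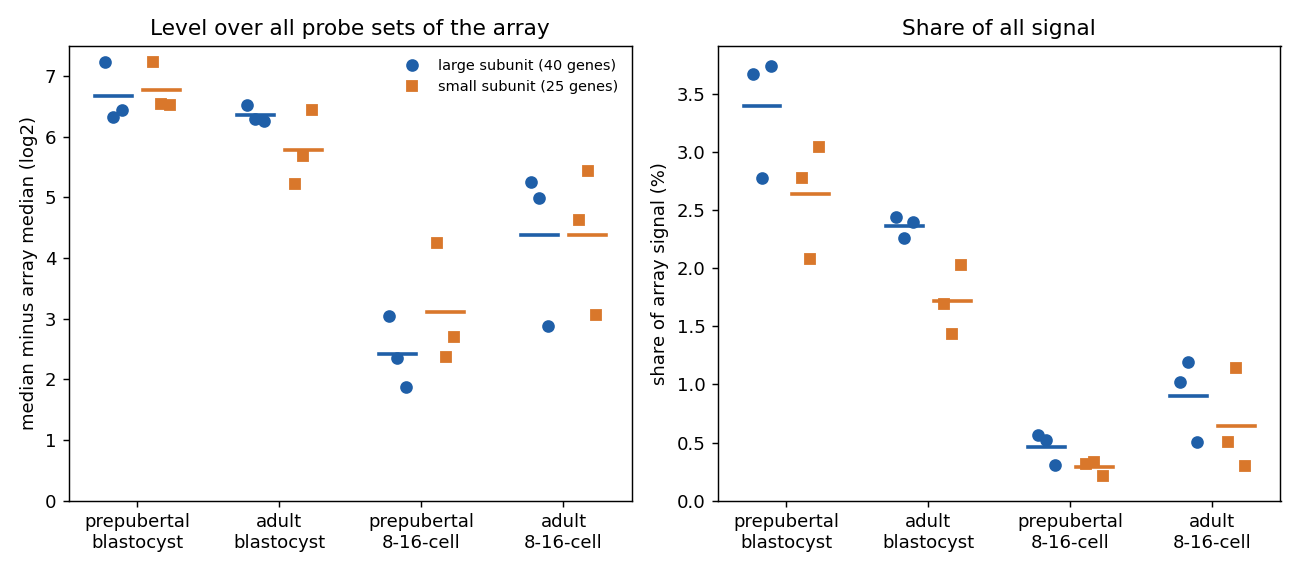
Left, median log2(signal + 16) of the large subunit (blue circles, 40 genes) and small subunit genes (orange squares, 25 genes) minus the median of all probe sets of the same array; right, their share of the array's signal in percent, with 1 point per array and a bar at the mean of 3. The large subunit stood higher on every blastocyst array than on any 8-16-cell array, and so did the small subunit except that adult blastocyst replicate 1 lay below adult 8-16-cell replicate 2; the shares of the large subunit on blastocyst arrays ran from 2.26% to 3.74%.

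Replicates varied less for these genes in blastocysts than in 8-16-cell embryos. The SD over 3 arrays on the log2 scale had a median over members of 0.61 in prepubertal blastocysts and 0.69 in adult blastocysts, against 1.73 in prepubertal and 1.22 in adult 8-16-cell embryos. Among the 6004 probe sets of highest mean level, which held 60 of the 65 members, the same medians were 1.18, 1.19, 1.71 and 1.39. Within the adult 8-16-cell group, replicate 3 was the lowest array for 39 of 65 members and replicate 2 the highest for 42. Within prepubertal blastocysts, replicate 2 was the lowest for 38.

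In prepubertal embryos, 27 of the 65 genes rose between the 8-16-cell stage and the blastocyst, 19 of 40 in the large subunit and 8 of 25 in the small subunit, and none fell. A gene was called where the adjusted p of limma's moderated test on log2(signal + 16), over all 24016 probe sets, was at most 0.05. Of all probe sets 1.43% were called higher and 0.912% lower, and of the 6004 probe sets of highest mean level 5.55% were called higher and 2.91% lower. The differences of the 27 called genes ran from 2.27 to 7.33 on the log2 scale. In each of the 27 the 3 blastocyst arrays all lay above the 3 8-16-cell arrays, and this also held for 24 of the 38 genes that did not pass, against 7.35% of all probe sets. The reverse order was seen for RPL21 alone, against 9.24% of all probe sets. Over the 65 genes the difference was above 0 for 62, against 40.7% of all probe sets, and its median was 3.50, against -0.37 over all probe sets. Relative to all probe sets that is 3.87, and 2.51 with the floor. Of the 6004 probe sets of highest mean level 57.7% were above 0, with a median of 0.51. With the floor 28 genes rose, 22 of them among the 27, and RPL21 fell. Without prepubertal 8-16-cell replicate 3 the count was again 27, with 18 large and 9 small subunit genes, against 2.23% of all probe sets called in either direction. The medians were then 3.45 and -0.05. Fewer were called when a prepubertal blastocyst array was left out, namely 16 without replicate 1, 16 without replicate 2 and 14 without replicate 3.

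RPL14, a protein of the large subunit, had the largest fitted difference, which rests on signals near background. RPL14 gave signals of 26666, 16014 and 7538 in prepubertal blastocysts, against 386, 12.9 and 50.4 in prepubertal 8-16-cell embryos, where 1 of 3 arrays was above background. Its stage difference was 7.33 (SE 1.32, adjusted p = 4.57e-05, limma), and with the floor it was 3.14 (adjusted p = 0.00799), below those of RPL27A and RPL37A. In adult embryos RPL14 gave 22569, 7287 and 16862 in blastocysts, against 368, 2529 and 528 at the 8-16-cell stage. These arrays did not overlap either, with a difference of 4.12 (SE 1.32) that did not pass (adjusted p = 0.0753). With the floor it was 2.87 and passed (adjusted p = 0.0165).

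Within the large subunit, RPL27A and RPL37A came next by fitted difference. RPL27A gave 22157, 22259 and 27964 in prepubertal blastocysts, against 763, 1269 and 30.3 in prepubertal 8-16-cell embryos, a difference of 6.06 (SE 1.10, adjusted p = 5.29e-05, limma), which was 4.58 without the array that stood apart and 3.84 with the floor. In adult embryos RPL27A gave 11255, 15077 and 29651 in blastocysts and 12568, 9246 and 3748 at the 8-16-cell stage, and the groups overlapped (difference 1.17, SE 1.10). The prepubertal 8-16-cell arrays all lay below the adult ones. RPL37A gave 34648, 11700 and 100131 in prepubertal blastocysts, against 341, 821 and 654 in prepubertal 8-16-cell embryos (difference 5.88, SE 1.22, adjusted p = 0.000675, limma), and with the floor the difference was 4.36. In adult embryos it gave 5910, 19599 and 8521 in blastocysts and 12778, 2861 and 39.3 at the 8-16-cell stage, where the spread was wide and the groups overlapped.

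In the small subunit RPS15, a protein of the head of the subunit, had the largest fitted difference. RPS15 gave 18463, 14013 and 23411 in prepubertal blastocysts, against 16.7, 443 and 130 in prepubertal 8-16-cell embryos (difference 7.13, SE 1.28, adjusted p = 3.74e-05, limma). Of these 8-16-cell arrays 1 of 3 was above background, and with the floor the difference was 3.44 (adjusted p = 0.0175), below those of RPS18, RPS3A and RPS10. In adult embryos it gave 3095, 15574 and 6782 in blastocysts and 3735, 10728 and 553 at the 8-16-cell stage, and the groups overlapped. RPS10, which lies near the mRNA entry side of the subunit, gave 27262, 24636 and 12513 in prepubertal blastocysts, against 437, 674 and 52.1 in prepubertal 8-16-cell embryos (difference 6.20, SE 1.31, adjusted p = 0.000934, limma). The difference was 5.19 without the array that stood apart and 3.60 with the floor. Its adult signals were 2768, 5239 and 3243 in blastocysts and 1808, 5384 and 142 at the 8-16-cell stage, so these groups overlapped too.

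RPS18, of the head of the small subunit, had the smallest adjusted p of all members. RPS18 gave 82944, 76271 and 76619 in prepubertal blastocysts with little spread, against 7094, 2241 and 1363 in prepubertal 8-16-cell embryos (difference 4.81, SE 0.82, adjusted p = 1.29e-05, limma). The adult groups overlapped, at 46835, 27227 and 62013 in blastocysts and 33375, 24313 and 3625 at the 8-16-cell stage. RPS3A gave 43445, 55466 and 49609 in prepubertal blastocysts, against 3015, 12863 and 55.2 in prepubertal 8-16-cell embryos, a difference of 5.13 (SE 0.94, adjusted p = 5.39e-05, limma). The lowest of these, 55.2, was on the array that stood apart, and without it the difference was 2.98 (adjusted p = 0.00327). In adult embryos RPS3A gave 56349, 35755 and 68122 in blastocysts, against 15483, 18631 and 3960 at the 8-16-cell stage, which did not overlap and did not pass (difference 2.30, SE 0.94, adjusted p = 0.241).

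RPL14, RPS15, RPS10, RPL27A, RPL37A, RPS3A and RPS18 kept their calls under all 22 alternative settings and left-out arrays, and so did RPL30 and RPL34, which were picked out after their values were seen. The other 18 calls were lost under at least 1 of them. No called difference changed sign under any of them.

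**Figure D2:**
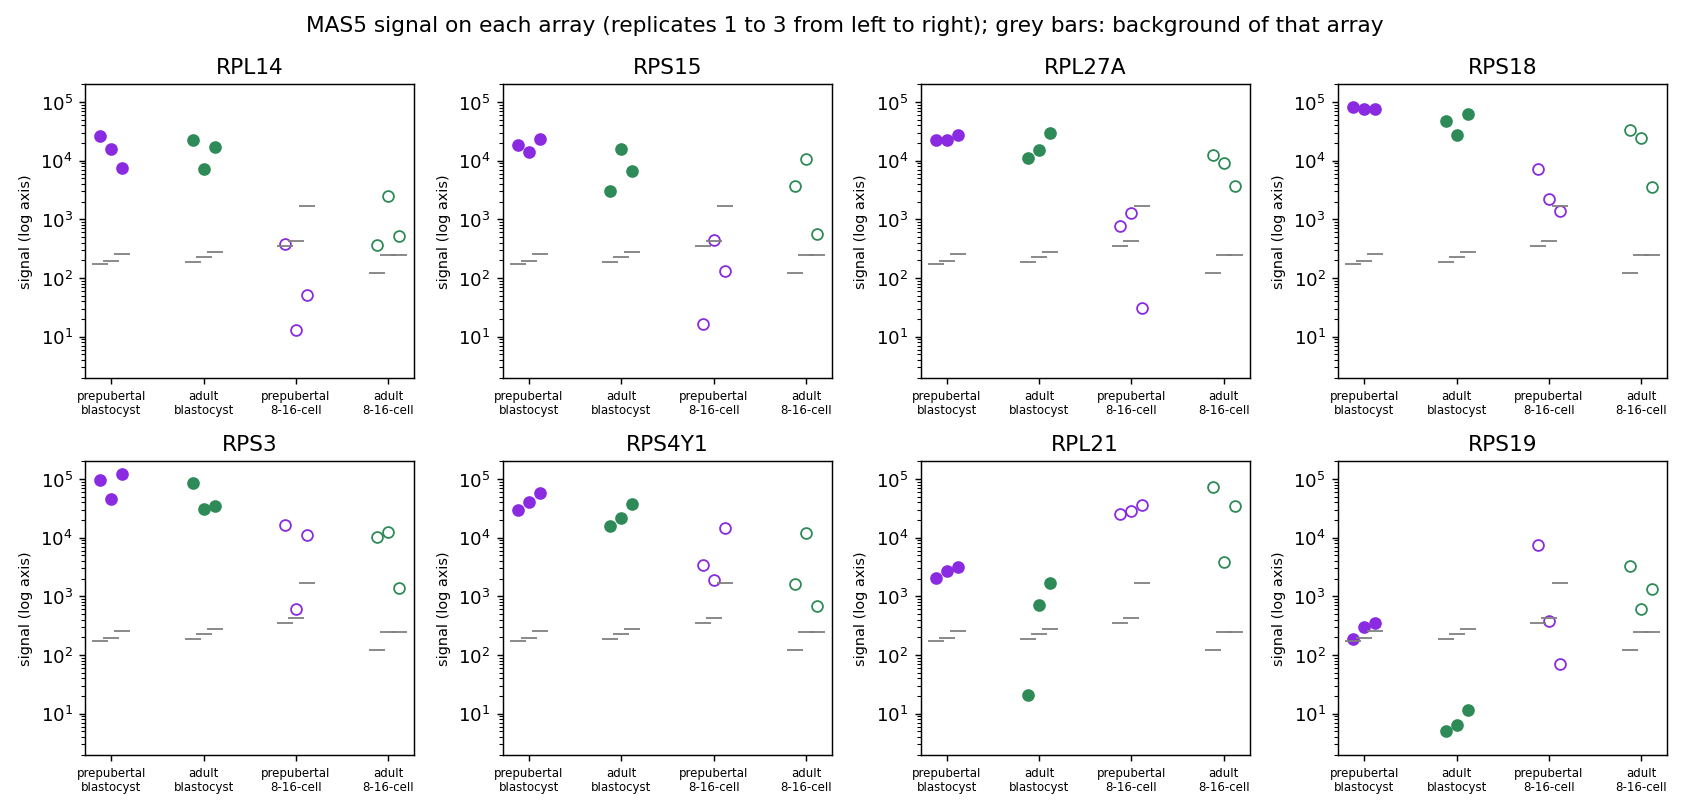
MAS5 signal on a log axis for 8 members on each of the 12 arrays, with purple for prepubertal and green for adult donors, filled points for blastocysts and open points for 8-16-cell embryos, and grey bars at each array's background. RPL14, RPS15, RPL27A, RPS18, RPS3 and RPS4Y1 were brighter in prepubertal blastocysts than in prepubertal 8-16-cell embryos, whereas RPL21 was dimmer in blastocysts of both donor groups and RPS19 lay far below background in adult blastocysts.

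The P stalk of the large subunit, which recruits elongation factors, was represented by RPLP0, its base, and RPLP2. RPLP0 gave 17806, 7203 and 16386 in prepubertal blastocysts, against 410, 314 and 1098 in prepubertal 8-16-cell embryos. It rose by 4.57 (SE 1.25, adjusted p = 0.0210, limma), or 2.93 with the floor, but the adjusted p was 0.0509 to 0.146 when any 1 of the 3 prepubertal blastocyst arrays was left out and 0.0625 without prepubertal 8-16-cell replicate 2. In adult embryos its signals were 6321, 13121 and 8289 in blastocysts, against 1954, 2874 and 233 at the 8-16-cell stage. These did not overlap and did not pass (difference 2.98, SE 1.25, adjusted p = 0.266), whereas with the floor the difference was 2.06 and passed (adjusted p = 0.0388). RPLP2 gave 3676, 1350 and 2590 in prepubertal blastocysts and was at background on all 3 prepubertal 8-16-cell arrays, a difference of at least 3.71-fold that did not pass (adjusted p = 0.0952). Its adult signals were 2038, 1067 and 261 in blastocysts and 21.2, 2892 and 7.27 at the 8-16-cell stage.

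RPL5 and RPL11 bind 5S ribosomal RNA and enter the large subunit with it, and the same particle can bind MDM2, the inhibitor of p53. RPL5 gave 64246, 44533 and 43551 in prepubertal blastocysts, against 7077, 10324 and 26.1 in prepubertal 8-16-cell embryos (difference 5.10, SE 0.98, adjusted p = 0.000177, limma). The value of 26.1 was that of the array that stood apart, and without it the difference was 2.54 (adjusted p = 0.0261). With the floor it was 3.33 and did not pass (adjusted p = 0.0546). In adult embryos RPL5 gave 52624, 39441 and 43465 in blastocysts, against 7662, 25816 and 1915 at the 8-16-cell stage. The groups did not overlap, and the difference of 2.63 (SE 0.98) had an adjusted p of 0.168, which was 0.00531 without prepubertal 8-16-cell replicate 3. RPL11 gave 32742, 38175 and 35804 in prepubertal blastocysts, against 5363, 842 and 2194 in prepubertal 8-16-cell embryos (difference 4.03, SE 0.99, adjusted p = 0.00666, limma). Its adjusted p was 0.0588 without prepubertal blastocyst replicate 2 and 0.0522 without replicate 3. Adult RPL11 signals were 19394, 12654 and 36940 in blastocysts, against 10015, 2835 and 2667 at the 8-16-cell stage, with a difference of 2.30 (SE 0.99) that did not pass.

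RPL3 and RPL4 are early-binding proteins of the large subunit, RPL3 near the peptidyl transferase centre and RPL4 at the exit tunnel, and RPL10 joins late. RPL3 gave 10723, 8384 and 12877 in prepubertal blastocysts and was at background on all 3 prepubertal 8-16-cell arrays, with signals of 38.3, 316 and 783. It was at least 16.6-fold higher in blastocysts (adjusted p = 0.00745, limma). The adjusted p was 0.0526 without prepubertal blastocyst replicate 1, 0.0596 without replicate 3 and 0.0682 without prepubertal 8-16-cell replicate 1. In adult embryos RPL3 gave 7244, 6398 and 6321 in blastocysts, against 571, 809 and 314 at the 8-16-cell stage, with groups far apart but no call (difference 3.62, SE 1.34, adjusted p = 0.160). With the floor this difference was 1.99 and passed (adjusted p = 0.0113, limma). The floor sets these 3 8-16-cell signals equal and so leaves no spread among them. RPL4 gave 32011, 25054 and 33437 in prepubertal blastocysts, against 10909, 4912 and 1014 in prepubertal 8-16-cell embryos. Its difference of 2.97 (SE 0.91) had an adjusted p of 0.0522, just outside the threshold, and passed without prepubertal 8-16-cell replicate 1 (3.73, adjusted p = 0.0162) or without adult 8-16-cell replicate 1 or 3 (adjusted p = 0.0484 and 0.0491). Without prepubertal 8-16-cell replicate 3 it was 2.03 (adjusted p = 0.154), and over all alternatives its adjusted p reached 0.206. RPL10 gave 6785, 9730 and 6307 in prepubertal blastocysts, against 572, 38.1 and 103 in prepubertal 8-16-cell embryos (difference 5.59, SE 1.38, adjusted p = 0.00760, limma). Its adjusted p was 0.0608 without prepubertal blastocyst replicate 2 and 0.0515 without prepubertal 8-16-cell replicate 2. With the floor the difference was 2.16 and did not pass (adjusted p = 0.0547). The adult arrays of RPL10 overlapped, at 1523, 6572 and 2473 in blastocysts and 910, 4052 and 410 at the 8-16-cell stage.

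RPS3 and RPS4Y1, both of the small subunit, were the members that passed in adult embryos in the upward direction. RPS3, which sits at the mRNA entry channel, gave 97139, 45900 and 121530 in prepubertal blastocysts, against 16354, 611 and 11059 in prepubertal 8-16-cell embryos (difference 4.07, SE 0.86, adjusted p = 0.000925, limma). Without prepubertal 8-16-cell replicate 2 the difference was 2.60 (adjusted p = 0.0759), and with the floor it was 3.60 (adjusted p = 0.0561). In adult embryos RPS3 gave 85305, 30766 and 34370 in blastocysts, against 10118, 12466 and 1409 at the 8-16-cell stage (difference 2.99, SE 0.86, adjusted p = 0.0360, limma). RPS4Y1 gave 16104, 22068 and 37165 in adult blastocysts, against 1639, 11856 and 682 in adult 8-16-cell embryos (difference 3.30, SE 0.97, adjusted p = 0.0415, limma). In prepubertal embryos RPS4Y1 gave 29836, 39995 and 56951 in blastocysts, against 3390, 1869 and 14912 at the 8-16-cell stage, with a difference of 3.16 (SE 0.97) that did not pass (adjusted p = 0.0546). This passed without prepubertal 8-16-cell replicate 3 (4.01, adjusted p = 0.00265) and without adult 8-16-cell replicate 1 (0.0420) or 3 (0.0317). Both adult calls depended on single arrays, and with the floor neither passed (adjusted p = 0.143 for RPS3 and 0.111 for RPS4Y1). Leaving out any adult blastocyst array, or adult 8-16-cell replicate 3, raised the adjusted p of RPS3 to between 0.0740 and 0.415 and that of RPS4Y1 to between 0.0879 and 0.341, and so did prepubertal blastocyst replicates 1 and 3, which enter only through the shared variance (0.0599 to 0.0678). For RPS4Y1 the adjusted p was also 0.0616 without prepubertal blastocyst replicate 2 and 0.149 without adult 8-16-cell replicate 1. The RefSeq table gives RPS4 as a synonym of both RPS4Y1 and RPS4X, so the signal may hold transcripts of either gene.

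RPS6, the small subunit protein that S6 kinase phosphorylates, gave 39217, 30418 and 50103 in prepubertal blastocysts, against 9328, 5790 and 4590 in prepubertal 8-16-cell embryos. Although these arrays did not overlap, the difference of 2.63 (SE 0.85) missed the threshold (adjusted p = 0.0700, limma). In adult embryos the stages overlapped, at 17032, 31688 and 45068 in blastocysts and 13660, 34585 and 3115 at the 8-16-cell stage. RPSA, a small subunit protein also known as a laminin receptor, gave 1948, 1433 and 6681 in prepubertal blastocysts, against 9.53, 1027 and 1138 in prepubertal 8-16-cell embryos. Its stage differences were 3.09 (SE 1.46) in prepubertal and 1.12 (SE 1.46) in adult embryos, and neither passed. RPL22, a large subunit protein with roles outside the ribosome in lymphocytes of the mouse, gave 15070, 4165 and 42960 in prepubertal blastocysts, against 1836, 450 and 68.2 in prepubertal 8-16-cell embryos (difference 5.06, SE 1.32, adjusted p = 0.0142, limma), and with the floor the difference was 3.01. That call was lost without prepubertal 8-16-cell replicate 3 (adjusted p = 0.0744), without prepubertal blastocyst replicate 1 (0.0851) and without prepubertal blastocyst replicate 3 (0.178).

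The probe sets with the highest mean over the 12 arrays were those of RPS12, RPL36A, RPL7, RPL23 and RPS18. RPS12, a small subunit protein, gave 73924, 76520 and 109641 in prepubertal blastocysts, against 10170, 14222 and 37761 in prepubertal 8-16-cell embryos (difference 2.27, SE 0.65, adjusted p = 0.0313, limma). RPL36A rose by 2.82 (SE 0.73, adjusted p = 0.0127), RPL7 by 2.88 (SE 0.79, adjusted p = 0.0219) and RPL23 by 3.10 (SE 0.81, adjusted p = 0.0142) in the same comparison. The calls of these 4 genes were lost when any prepubertal blastocyst array was left out, with adjusted p of 0.0590 to 0.185. RPS12 also lost it without prepubertal 8-16-cell replicate 1 (0.117) or replicate 2 (0.0735), and RPL23 without prepubertal 8-16-cell replicate 2 (0.133). In adult embryos the differences were 1.05 (SE 0.65) for RPS12, 1.44 (SE 0.73) for RPL36A, 1.74 (SE 0.79) for RPL7 and 2.51 (SE 0.81) for RPL23, and none passed.

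At the other end, RPL3L, RPS9, RPL29, RPL28 and RPL7A had the lowest means. RPS9, of the small subunit, was above background on 1 of 12 arrays, and RPL29, of the large subunit, was above it on 2 of 3 prepubertal and 3 of 3 adult blastocyst arrays and on no 8-16-cell array. RPL7A gave 1698, 2036 and 246 in prepubertal blastocysts, where 2 of 3 arrays were above background, and was at background on all 3 prepubertal 8-16-cell arrays. This difference did not pass (adjusted p = 0.0961, limma). None of these 5 genes was called in any comparison.

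The probe sets used for RPL21 and RPS19 went the other way and fell in adult embryos. RPL21, a large subunit protein, gave 20.7, 706 and 1697 in adult blastocysts, against 74073, 3871 and 34084 in adult 8-16-cell embryos (difference -5.91, SE 1.15, adjusted p = 0.000299, limma), and with the floor the difference was -3.66 (adjusted p = 0.0361). In prepubertal embryos it gave 2077, 2695 and 3125 in blastocysts, against 25529, 28478 and 35815 at the 8-16-cell stage. These replicates were tight and did not overlap, but the difference of -3.50 (SE 1.15) did not pass (adjusted p = 0.0821, 0.123 without prepubertal 8-16-cell replicate 3, and 0.0436 without adult blastocyst replicate 1). With the floor it was again -3.50 and passed (adjusted p = 0.0363). A second RPL21 probe set differed by 2.38 in prepubertal and 0.38 in adult embryos, opposite in sign to the one used here and not called. Its mean log2 level over the 12 arrays was 11.8, against 12.3 for the one used. In blastocysts it was the brighter one, at 13.2 against 11.4 in prepubertal and 11.7 against 8.48 in adult embryos. A fall of RPL21 as a gene is therefore not shown. RPS19, the small subunit protein most often mutated in Diamond-Blackfan anaemia, gave 5.10, 6.28 and 11.3 in adult blastocysts, all at background, against 3359, 612 and 1341 in adult 8-16-cell embryos. In adult blastocysts it was lower by a factor of at least 6.15 (adjusted p = 0.00987, limma), and the adjusted p was 0.0671 without adult 8-16-cell replicate 1. With the floor the difference was -0.34 and did not pass (adjusted p = 0.834). In prepubertal embryos RPS19 gave 190, 300 and 350 in blastocysts and 7393, 375 and 70.0 at the 8-16-cell stage, which overlapped (difference -1.13, SE 1.48, and -2.57 without prepubertal 8-16-cell replicate 3). A second RPS19 probe set differed by -0.36 in prepubertal and -1.56 in adult embryos and was not called.

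Over all members, 2 genes rose and 2 fell in adult embryos, RPS3 and RPS4Y1 upward and RPL21 and RPS19 downward, where 1.26% of all probe sets were called higher and 0.87% lower. Among the 6004 probe sets of highest mean level 4.7% were called higher and 3.11% lower. The difference was above 0 for 59 of the 65 genes, against 52.2% of all probe sets, with a median of 1.82, against 0.08 over all probe sets. Of the 6004 probe sets of highest mean level 53.3% were above 0, with a median of 0.19. For 33 genes the 3 blastocyst arrays all lay above the 3 8-16-cell arrays, against 9.55% of all probe sets, and for RPL21 and RPS19 below them, against 7.62%. Without prepubertal 8-16-cell replicate 3, which enters this comparison only through the shared variance, 7 rose and 2 fell. In that fit 3.31% of all probe sets were called, in either direction. RPL5, RPL14 and RPS3A were among the 7. With the floor 3 other genes rose, RPL3, RPL14 and RPLP0, and RPL21 fell, while RPS3, RPS4Y1 and RPS19 did not pass. The count was 2, with both genes lower, when any adult blastocyst array was left out, and also without adult 8-16-cell replicate 3 or without prepubertal blastocyst replicate 1 or 3.

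**Figure D3:**
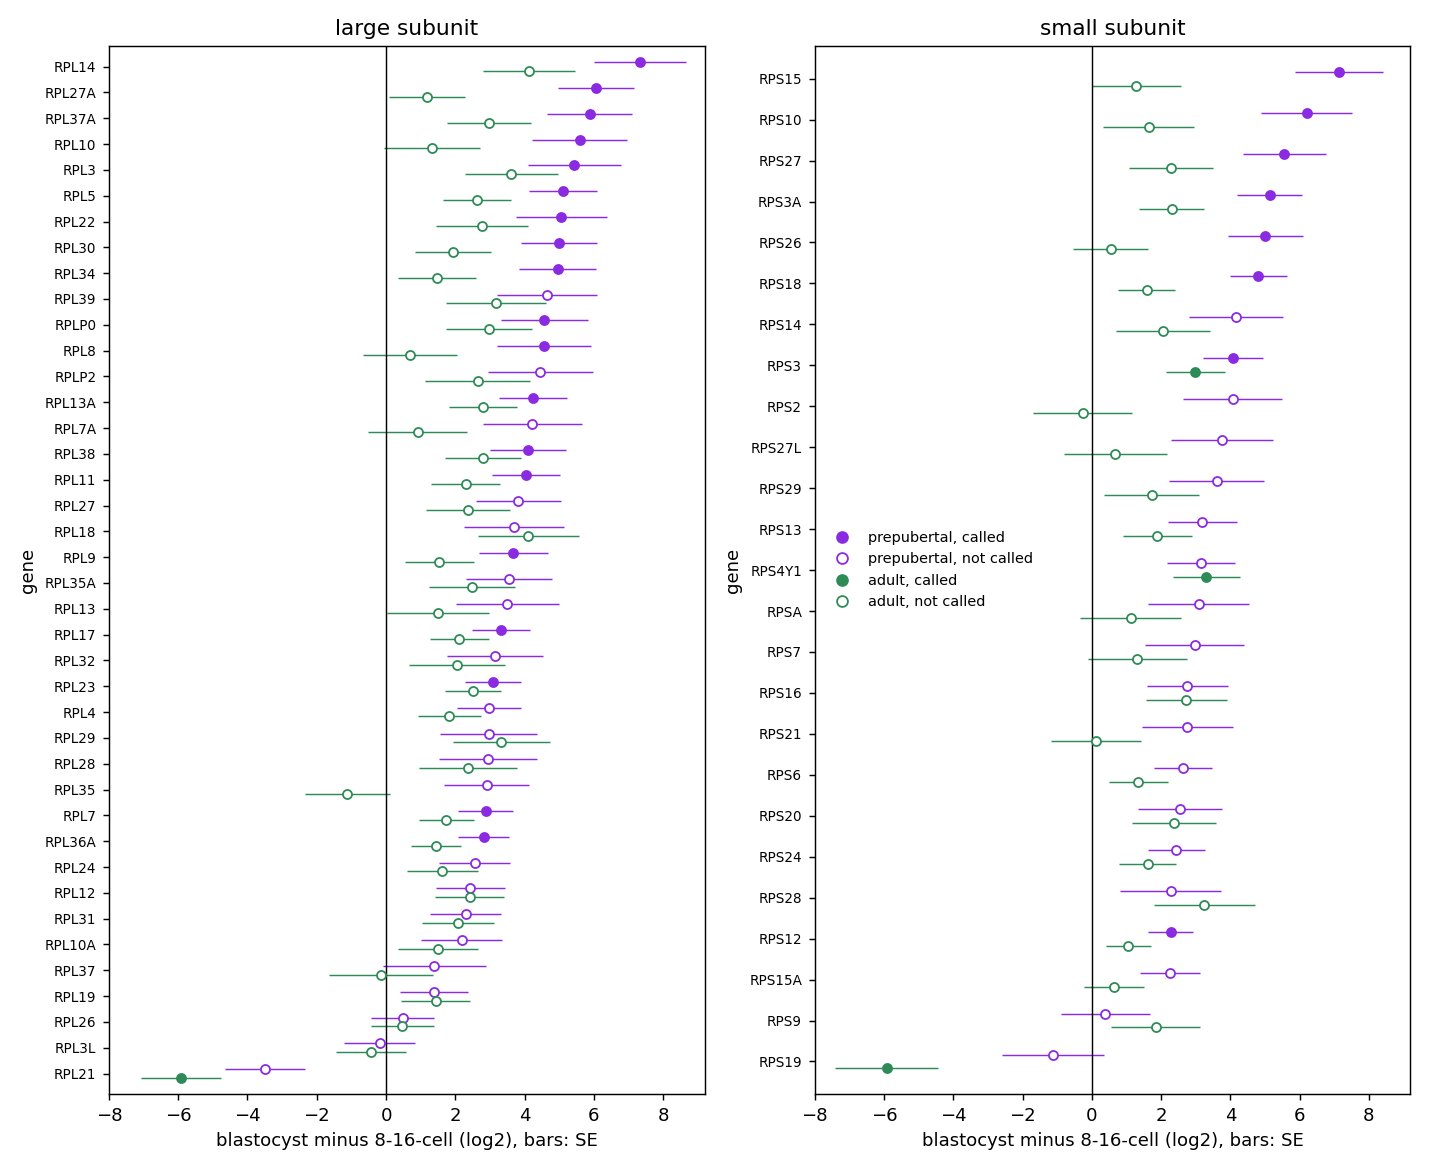
Difference between blastocysts and 8-16-cell embryos on the log2 scale for each large subunit gene (left) and small subunit gene (right), with purple for prepubertal and green for adult embryos, filled points where the test passed and bars of 1 SE. Nearly all points lie right of 0, and RPL21 and RPS19 lie furthest to the left.

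The 2 stage comparisons share no arrays. The difference was above 0 in both donor groups for 59 of the 65 genes and below 0 in both for 3, RPL21, RPS19 and RPL3L. It was above 0 in prepubertal embryos only for the other 3, RPL35, RPS2 and RPL37, of which RPL35 and RPS2 are named after their values were seen. In 29 genes (44.6%) the blastocyst arrays lay above the 8-16-cell arrays in both donor groups, against 2.86% of all probe sets and 10.2% of the 6004 of highest mean level. Of the 27 genes called in prepubertal embryos this held in adult embryos for 15. Across the 65 genes the stage differences of the donor groups correlated with Pearson's r = 0.62 and Spearman's rho = 0.34, and over all 24016 probe sets with r = 0.45. Genes are not independent replicates, and all arrays share the amplification and the array type.

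That 27 genes rose in prepubertal and 2 in adult embryos does not show that the stage change differed between donor groups. The test of that difference, prepubertal minus adult, passed for 0 of the 65 genes (and 0% of all probe sets) by limma, with a smallest adjusted p of 0.766, for RPS15. It was above 0 for 59 genes, against 40.9% of all probe sets, with a median of 1.60 against -0.40 over all. Relative to all probe sets that is 2.00, and with the floor it was 0.90. The 6004 probe sets of highest mean level had a median of 0.21, with 54.5% above 0. An unadjusted p of at most 0.05 was reached by 12 genes (18.5%), against 5.44% of all probe sets. For RPS15 the difference was 5.85 (SE 1.81), or 2.68 with the floor, and for RPL27A 4.89 (SE 1.56), or 2.66 with the floor.

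**Figure D4:**
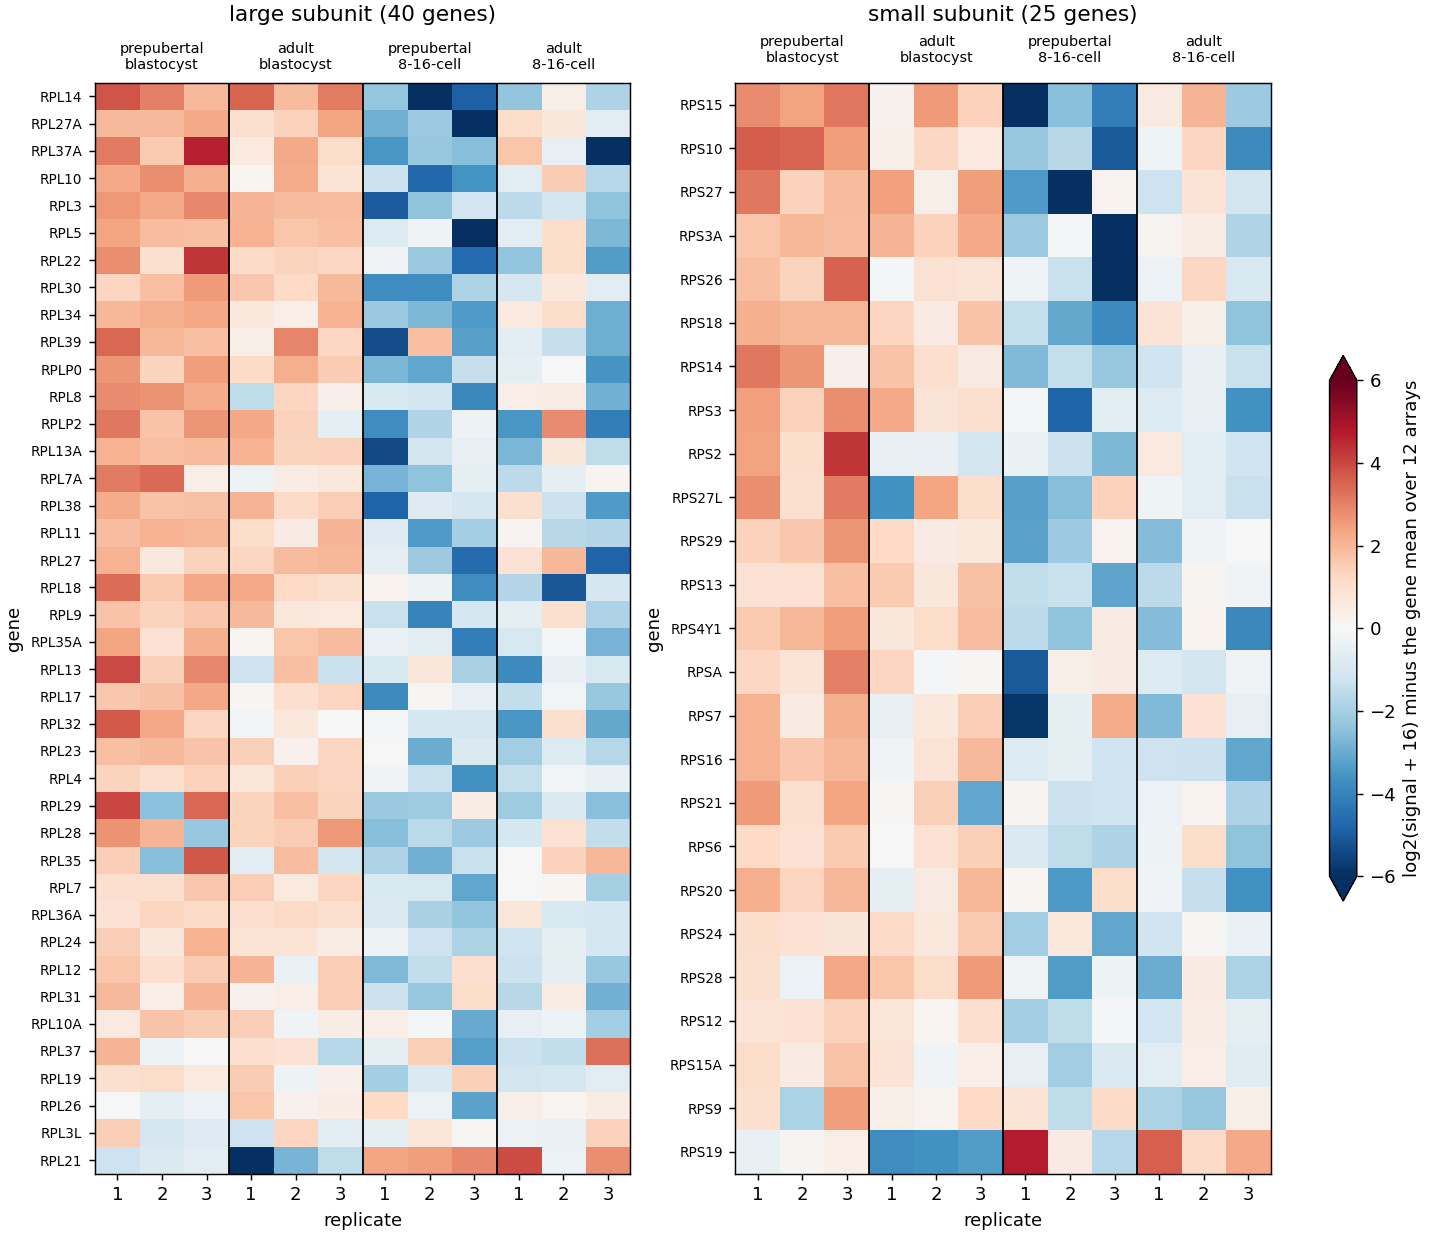
log2(signal + 16) of each of the 65 genes on each of the 12 arrays minus the gene's mean over the 12 arrays, with large subunit genes on the left and small subunit genes on the right, ordered by the stage difference in prepubertal embryos and with colours capped at 6 in each direction. The blastocyst columns are mostly red and the 8-16-cell columns mostly blue, with RPL21 in the bottom row on the left mostly reversed and RPS19 reversed in the adult columns.

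Between donor groups no member passed at either stage. At the 8-16-cell stage, where 0.0208% of all probe sets were called, the prepubertal minus adult difference was below 0 for 50 of the 65 genes and above 0 for 15, against 67% of all probe sets above 0. Its median was -0.97, against 0.59 over all probe sets, so relative to all probe sets it was -1.56, and -0.25 with the floor. The 6004 probe sets of highest mean level, which held 60 of the 65 members, had a median of -0.14, with 46.4% above 0. The members thus lay below these brighter probe sets too, but by less than they lay below all probe sets. An unadjusted p of at most 0.05 was reached by 12 members (limma), against 9.02% of all probe sets. The smallest adjusted p was that of RPL27A, at 0.137, with a difference of -4.40 (SE 1.10), which was -2.18 with the floor (adjusted p = 0.533). RPL27A was called when prepubertal 8-16-cell replicate 2 was left out (adjusted p = 0.0439), as was RPS3A (difference -4.49, adjusted p = 0.0439). With all arrays RPS3A differed by -2.90 (SE 0.94, adjusted p = 0.369), or -1.38 with the floor, and without prepubertal 8-16-cell replicate 3 by -0.75 (adjusted p = 0.907). Without that array RPL27A differed by -2.92 (adjusted p = 0.411). RPS15 differed by -4.45 (SE 1.28, adjusted p = 0.280), with 16.7, 443 and 130 in prepubertal against 3735, 10728 and 553 in adult 8-16-cell embryos, and with the floor it differed by -1.28. The 3 prepubertal arrays all lay below the 3 adult ones for 6 genes, RPL27A, RPS15, RPL35, RPL30, RPL28 and RPS14, against 2.67% of all probe sets. They all lay above for RPS16 alone, against 10% of all probe sets. Apart from RPL27A, RPS15 and RPL28, these were named after their values were seen. Without prepubertal 8-16-cell replicate 3, 18 genes were above 0, and the median was -0.73 against 0.29 over all probe sets. No member was then called, against 0.0208% of all probe sets.

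In blastocysts the difference had the opposite sign for most members, and 0% of all probe sets were called. It was above 0 for 57 of the 65 genes, against 55.6% of all probe sets, with a median of 0.77 against 0.16 over all. The 6004 probe sets of highest mean level had a median of 0.02, with 50.6% above 0. An unadjusted p of at most 0.05 was reached by 4 members, RPL13, RPL21, RPS19 and RPS2 (limma), against 3.68% of all probe sets, and the adjusted p of the members was at least 0.9996. RPL13 and RPS2 are named after their values were seen. RPS2, of the small subunit, gave 5001, 1943 and 17993 in prepubertal blastocysts, against 647, 665 and 411 in adult blastocysts (difference 3.28, SE 1.43, and 1.74 with the floor). RPS10 also kept its groups apart, with a difference of 2.49 (SE 1.31) and the blastocyst signals given above. The 3 prepubertal arrays all lay above the 3 adult ones for 12 members, against 6.04% of all probe sets. They all lay below for RPL26 alone, against 3.78% of all probe sets (difference -1.09, SE 0.92). Each donor comparison shares its arrays with the stage comparisons, so these values are not independent of them.

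The arrays of the donor groups also differed in how many probe sets stood above background. In 8-16-cell embryos this was 5.23% to 22.2% of probe sets on the prepubertal arrays, against 22.8% to 29.8% on the adult arrays. In blastocysts it was 33.8% to 35.4% on the prepubertal arrays, against 25.4% to 29.2% on the adult arrays. It thus moved in the same direction as the members at both stages, and its part in their differences was not tested. With each array centred on its own median, 58 members lay below 0 and 7 above at the 8-16-cell stage, with RPL27A called lower (difference -5.00, adjusted p = 0.0433, limma), and in blastocysts 50 lay above 0 and 15 below. On every array most probe sets were not above background, so the median subtracted there is itself not above it. With quantile normalization 50 members lay below 0 and 15 above at the 8-16-cell stage, and 57 above and 8 below in blastocysts. In that fit 0 members were called at either stage.

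**Figure D5:**
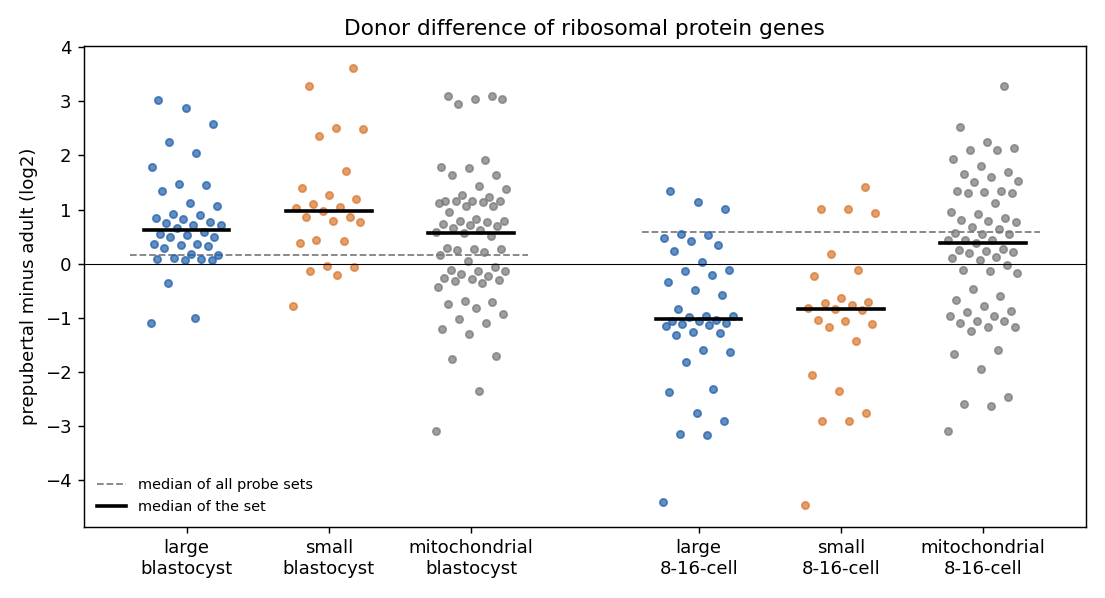
Prepubertal minus adult difference on the log2 scale for large subunit, small subunit and mitochondrial ribosomal protein genes, in blastocysts (left) and 8-16-cell embryos (right), with 1 point per gene, a black bar at the median of each set and a dashed line at the median of all probe sets. The cytosolic medians lie above the dashed line in blastocysts, at 0.62 for the large and 0.98 for the small subunit, and below it in 8-16-cell embryos, at -1.01 and -0.83.

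Between stages the large and small subunit genes had medians that lay close together, and no test of their difference was made, since members are not replicates. The median stage difference in prepubertal embryos was 3.61 for the 40 large subunit genes and 3.16 for the 25 small subunit genes. Without prepubertal 8-16-cell replicate 3 the order turned, with 3.38 for large and 3.45 for small subunit genes. In adult embryos the medians were 2.05 for large and 1.61 for small subunit genes. The blastocyst arrays all lay above the 8-16-cell arrays for 31 of 40 large and 20 of 25 small subunit genes in prepubertal embryos, against 7.35% of all probe sets, and for 23 of 40 and 10 of 25 in adult embryos, against 9.55%.

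Within an array, the median log2 level of the large subunit genes minus that of the small subunit genes has no natural zero, because it compares different probes. Only its change between arrays is described. It was -0.00, -0.20 and -0.08 in prepubertal blastocysts and 1.31, 0.62 and -0.17 in adult blastocysts. In 8-16-cell embryos it was -1.21, -0.02 and -0.82 in the prepubertal and 0.64, -0.44 and -0.18 in the adult group. The group means were -0.09 ± 0.10 in prepubertal blastocysts, 0.59 ± 0.74 in adult blastocysts, -0.68 ± 0.60 in prepubertal 8-16-cell embryos and 0.00 ± 0.56 in adult 8-16-cell embryos (SD, n = 3 each). All of these groups overlapped with at least 1 other, and prepubertal blastocysts had the least spread. When all 90 member probe sets were used in place of 1 per gene, the mean was 0.48 in prepubertal blastocysts and 0.24 in prepubertal 8-16-cell embryos. With 1 probe set per gene and the mean over genes in place of the median, the group means were -0.15 ± 0.35 in prepubertal and 0.17 ± 0.20 in adult blastocysts. In 8-16-cell embryos they were then -0.24 ± 0.44 in the prepubertal and -0.28 ± 0.07 in the adult group. The changes between groups thus depended on the summary used.

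Paralogs of RPL3 and RPS27 were measured. RPL3L, a paralog of RPL3 that is known from striated muscle, gave 4.66 to 118 over the 12 arrays, all at background. RPS27, a zinc-finger protein of the small subunit, gave 35267, 10368 and 15000 in prepubertal blastocysts, against 361, 14.2 and 4575 in prepubertal 8-16-cell embryos (difference 5.56, SE 1.21, adjusted p = 0.00139, limma). Its adjusted p was 0.0688 without prepubertal 8-16-cell replicate 2. The difference was 7.37 without prepubertal 8-16-cell replicate 3 and 2.91 with the floor (adjusted p = 0.0650). Its paralog RPS27L, a p53-induced gene in human cells, gave 1757, 479 and 2209 in prepubertal blastocysts, against 11, 27.1 and 658 in prepubertal 8-16-cell embryos, all 3 of the last at background, and did not pass (adjusted p = 0.185). In adult embryos RPS27 gave 21604, 4992 and 22940 in blastocysts and 1641, 7106 and 1816 at the 8-16-cell stage, which overlapped, and RPS27L gave 4.92, 1303 and 509 in blastocysts and 200, 144 and 86.6 at the 8-16-cell stage.

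The members that varied least between groups included RPL3L and RPS9, which lay near background, and RPL37, RPL26 and RPL19, which did not all do so. The SD of the 4 group means was 0.59 for RPL37, 0.69 for RPL26 and 0.84 for RPL19 on the log2 scale. RPL26, which sits beside the exit tunnel, gave 12322, 8480 and 9768 in prepubertal blastocysts, against 28923, 9791 and 1321 in prepubertal 8-16-cell embryos. Its adult signals were 38900, 15130 and 16758 in blastocysts, against 15960, 13669 and 16906 at the 8-16-cell stage. Both pairs overlapped, and the stage differences were 0.48 (SE 0.92) and 0.47 (SE 0.92). The first was -0.74 without prepubertal 8-16-cell replicate 3. RPL19 gave 17340, 19058 and 13575 in prepubertal blastocysts and 2125, 4934 and 23826 in prepubertal 8-16-cell embryos, with a difference of 1.38 (SE 0.99) that did not pass and was 2.34 without the last array. RPL37 gave 1588, 306 and 383 in prepubertal blastocysts and 251, 1045 and 23.7 in prepubertal 8-16-cell embryos, without separation. The largest SD of group means was that of RPL14, at 3.55, followed by RPS15 at 3.09, RPL21 at 2.97, RPL27A at 2.76 and RPL37A at 2.70.

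Mammalian genomes carry many processed pseudogenes of ribosomal protein genes, and a probe set may also bind their transcripts, which cannot be told apart here. Of the 65 probe sets, those of RPL10 and RPLP0 carry the array maker's marks for probes shared with other transcripts. For the 17 members with several probe sets, 25 further probe sets were measured. In prepubertal embryos 18 of the 25 had a stage difference of the same sign as the one used, and in adult embryos 22 of the 25. One of the 25 was called, a second probe set of RPS12, which rose by 3.51 in prepubertal embryos (adjusted p = 0.00534, limma). In the donor comparisons 11 of 25 at the 8-16-cell stage and 10 of 25 in blastocysts had the same sign, so the signs of those small differences depended on the probe set. The further probe sets had the lower mean over the 12 arrays by the way the members were chosen, although that of RPL21 was the brighter one in blastocysts.

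Some genes that share regulation or function with the ribosomal proteins were called too. FAU, a fusion gene that encodes a small subunit protein outside the symbol rule, differed by 0.48 (SE 1.23) in prepubertal and 1.59 (SE 1.23) in adult embryos between stages, and neither passed. A list of other genes with a terminal oligopyrimidine tract or a product bound to the ribosome held 22 symbols, with RACK1 also under its older symbol GNB2L1. Of these symbols 18 were measured, and 4 rose in prepubertal embryos, against 1.43% of all probe sets and 5.55% of the 6004 of highest mean level. Their median was 1.50, against -0.37 over all probe sets. EEF1G, a subunit of elongation factor 1, was at least 17-fold higher in prepubertal blastocysts than in prepubertal 8-16-cell embryos (adjusted p = 0.000126, limma). RACK1, a scaffold on the small subunit, rose by 5.85 (SE 1.18, adjusted p = 0.000459), PABPC1, the cytoplasmic poly(A)-binding protein, by 5.44 (SE 1.23, adjusted p = 0.00257) and NAP1L1, a histone chaperone, by 2.20 (SE 0.63, adjusted p = 0.0310). In adult embryos, where 1.26% of all probe sets were called higher, none of the 18 was called, with a median of 0.96 against 0.08 over all probe sets. Of 28 genes of mTORC1 and S6 kinase signalling, 23 were measured and none was called between stages. Of all probe sets 1.43% were called higher and 0.912% lower in prepubertal embryos, and 1.26% higher and 0.87% lower in adult embryos. The medians of the 23 were -0.65 in prepubertal and 0.45 in adult embryos, against -0.37 and 0.08 over all probe sets.

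The 67 mitochondrial ribosomal protein genes, which build the separate ribosome of that organelle, were tested in the same fit. None was called in prepubertal embryos, where 1.43% of all probe sets were called higher and 0.912% lower. There 45 were above 0 (67.2%), against 40.7% of all probe sets, with a median of 0.86, against 3.50 over the cytosolic members and -0.37 over all probe sets. In adult embryos 1 of the 67, MRPL3, rose (difference 5.99, SE 1.47, adjusted p = 0.00817, limma). That is 1.49%, against 1.26% of all probe sets called higher. The median of the 67 was 0.66, against 0.08 over all probe sets. Between donor groups their medians were 0.56 in blastocysts and 0.38 in 8-16-cell embryos, against 0.16 and 0.59 over all probe sets. No test of the difference between the 2 families was made.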

How the data were processed

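RNA of 12 pools of embryos was measured on 12 bovine Affymetrix arrays of 24128 probe sets. The authors deposited MAS5 signal intensities on a linear scale, per the submitters' processing notes, and their 2% trimmed mean was 500.2 to 500.3 on every array. No label gives further settings. Each intensity was used as deposited, as log2(signal + 16), and 112 control probe sets were left out. limma 3.58.1 (R 4.3.3) fitted 4 group means to 24016 probe sets, with a variance trend and Benjamini-Hochberg adjustment over all of them, and a gene was called at an adjusted p of at most 0.05. The steps were tested on simulated data with large shifts and equal spread in all groups, so calls of smaller differences were not tested. SE is that of the difference. Its variance combined 8 residual with 196 prior degrees of freedom, so the fitted trend largely set it. The scatter of a gene's own replicates had little weight in it. "At least" folds set the brighter group's mean against each dim array's background. The number of arrays limits the precision.

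Genes came from the platform annotation, where 13292 probe sets name 1 gene, 86 several and 10638 none, and all 65 member symbols matched the RefSeq table (ARS-UCD2.0). The members and lists were chosen with earlier results of these data known. Named genes are the called members with separated groups, up to the 10 largest per direction and comparison, a fixed list by role, paralogs, and the 5 members with the highest and lowest mean level and the largest and smallest spread of group means. Replicate numbers recur across groups, and the labels do not say what they share, so the numbers were not taken as pairs. The correlations of same-numbered arrays' deviations ran from -0.03 to 0.05 over 18 pairs, with a median of 0.01. For arrays of other numbers they ran from -0.07 to 0.04 over 36 pairs, with a median of -0.01. These values do not decide whether the numbers mark pairs. Alternatives changed the pseudocount, normalization, floor, filter, probe sets, block, weights, variance trend and arrays.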

Additional observations from a re-analysis of the deposited data

How the results depend on the processing

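Of the 31 calls among members, 10 were kept under all 22 alternatives, 21 were lost under at least 1, and none reversed. In prepubertal embryos the 27 stage calls ranged from 14 to 31 with 1 array left out, and were 34 with quantile normalization and 18 without the variance trend. In adult embryos the 4 calls became 2, both lower, with a pseudocount of 64, without the variance trend and with arrays centred on their median (an alternative chosen after seeing the data). With the floor there were again 4, RPL14, RPL3 and RPLP0 higher and RPL21 lower, of which RPL21 alone is among the first 4. The calls became 8 with array weights, 9 with only the groups compared, and 2 to 9 with 1 array left out. Donor calls at the 8-16-cell stage went to 1 with centred arrays and 0 to 2 with 1 array left out. With the replicate block, 29 members were called in prepubertal and 4 in adult embryos, and 0 between donor groups. The share of all probe sets called is not given beside these counts, so their changes are not read as particular to the members. Whether the replicate numbers pair the arrays is not known, and 8 of 12 arrays correlated best with their own number. With signals floored at the highest background, the members' median minus that of all probe sets was 2.51 in place of 3.87 between stages in prepubertal embryos, -0.25 in place of -1.56 between donor groups at the 8-16-cell stage, and 0.90 in place of 2.00 for the difference of stage changes, and RPS19 in adult embryos was -0.34 (adjusted p = 0.834, limma). With all member probe sets, the first was 3.29, and large minus small was 0.48 in prepubertal blastocysts and 0.24 in prepubertal 8-16-cell embryos. Levels under an array's background have no reliable order, which limits most the array with a background of 1664.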
